A study of Homo sapiens with 12 samples.

Results

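The departure from additivity of SB-3CT and interferon gamma (IFNγ) was measured gene by gene in A375 cells, an established human melanoma cell line. RNA of 12 samples was sequenced, 3 from each of 4 groups: untreated controls, cells given SB-3CT, cells given IFNγ, and cells given SB-3CT and IFNγ together, all over 24 h. The departure, or interaction, of a gene was the change made by SB-3CT in the presence of IFNγ minus the change made by SB-3CT without it, as a difference of group means of log2(FPKM + 1), where FPKM is the number of fragments scaled for transcript length and library size. It used 12 of the 12 samples and was computed for the 4918 genes with symbols from A1BG to FAM46B, while the genes of the drug's own targets, MMP2 and MMP9, fall outside this range and were not analysed here. A value of 0 means that the effects of the agents add on this scale, a positive value that the combined cells lay above the sum of the separate effects, and a negative value that they lay below it. The cells are a single line in culture, and nothing in the labels says that samples of a group came from separate cultures, so p-values measure the spread between these samples, which may be technical.

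SB-3CT is a small-molecule inhibitor of the gelatinases MMP2 and MMP9, zinc proteases that cut extracellular matrix and cell-surface proteins. IFNγ is a cytokine of T and NK cells that signals through JAK kinases to transcription factors that bind GAS elements in promoters, and through the IRF factors induced in turn, which bind ISRE elements. In melanoma cells it raises antiviral, antigen presentation and chemokine genes and PD-L1, the ligand of the T cell checkpoint receptor PD-1. The study sequenced these cells to find pathways through which SB-3CT acts on PD-L1.

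The 3 libraries of the combined treatment stood apart from the other 9 before any gene was considered. Their median-ratio size factors, taken over genes with a mean of at least 1 FPKM, lay between 0.8669 and 0.8822, against 0.986 to 1.084 in the other libraries, so the typical gene of these libraries had a lower FPKM. Results are therefore given as deposited and after each library was divided by its size factor, the median-ratio scale. The median departure of the 3177 genes with a mean of at least 1 FPKM was -0.19 as deposited and -0.02 on the median-ratio scale, and single departures below are best read against these values. The part of the size factor in any result was not tested. Depth relative to the control mean, read from the steps that whole reads leave in the lowest values, ran from 87.14% to 150.1% and did not set the combined group apart. Among 9 measured marker genes of T, B and myeloid cells, 1 (CD68) had a mean of at least 1 FPKM, and none of the 9 departed on either scale by limma. Of 8 melanoma lineage genes, 5 had a mean of at least 1 FPKM, ERBB3 and CD63 among them, whereas DCT, a pigment enzyme gene, had a mean of 0.15 FPKM. In bulk RNA, fewer responding cells and less RNA per cell cannot be told apart.

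Of the 4918 genes, 1099 (22.3%) departed from additivity on the deposited scale at an adjusted p-value under 0.05 (limma, one fit of all 12 samples, Benjamini-Hochberg over all genes). These were 233 positive (4.74%) and 866 negative (17.6%) departures. On the median-ratio scale 657 genes departed (13.4%), 382 of them positively (7.77%) and 275 negatively (5.59%). The share of negative departures therefore depended on the scale, and most of the text below concerns the 506 genes (10.3%) called with the same sign on both. They made up 46.0% of the genes called on the deposited scale and 77.0% of those called on the median-ratio scale, and comprised 231 positive (4.70%) and 275 negative (5.59%) genes. No gene was called with opposite signs by the 2 scales. Of the 3177 genes with a mean of at least 1 FPKM, 465 were called on both scales, a higher share than over all genes. For gene lists made up mostly of such genes, the shares over all genes given below are therefore a low comparison. Fold changes of genes with low FPKM are understated on the log2(FPKM + 1) scale. Departures were mostly modest: 67 of the 506 genes exceeded 1.5-fold on both scales, 48 positive and 19 negative.

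**Figure D1:**
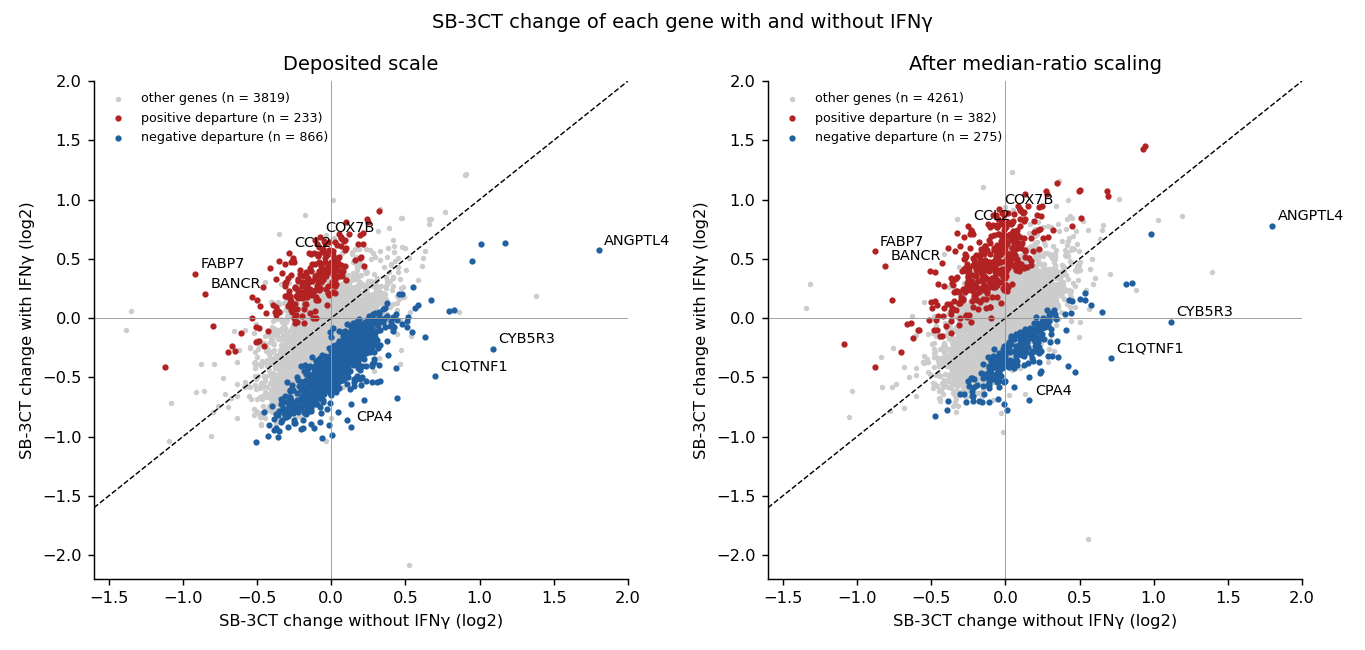
SB-3CT change of each of 4918 genes without IFNγ (horizontal axis, log2) against the change with IFNγ (vertical axis, log2), on the deposited scale (left) and after median-ratio scaling (right). The dashed line marks additivity, red points are positive departures (233 and 382 genes) and blue points negative departures (866 and 275 genes). ANGPTL4, CYB5R3 and C1QTNF1 lie below the line at the right, and FABP7 and BANCR above it at the left.

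Each departing gene was placed in a class by which of its separate changes passed the test. Seen from SB-3CT, an effect was called emerging when it passed only with IFNγ, strengthened when it passed in both settings and was larger with IFNγ, weakened when it passed in both and was smaller, masked when it passed only without IFNγ, and reversed when it passed in both with opposite signs. The classes name calls, and a change that missed the threshold was not thereby shown to be 0. On the deposited scale 766 of the 1099 genes were emerging, 152 masked, 68 reversed, 45 strengthened, 14 weakened, and 54 had neither change called. On the median-ratio scale the 657 genes held 438 emerging, 106 masked, 50 reversed, 27 strengthened and 12 weakened genes, with 24 in no class. Among the 506 genes, 364 fell in the same class on both scales: 313 emerging, 19 masked, 14 reversed, 13 strengthened, 3 weakened and 2 with neither change called. Departures in which SB-3CT changed a gene only, as far as the test showed, in the presence of IFNγ were thus the most frequent kind on both scales.

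Genes whose SB-3CT effect changed direction are given first. FABP7 encodes the brain-type fatty acid-binding protein, which neural crest-derived cells and melanomas also make (GRCh37 chromosome 6, 123100861 to 123105219). It measured 6.76, 9.27 and 8.02 FPKM in the controls, 3.34, 4.21 and 3.73 under SB-3CT, 2.46, 3.78 and 2.72 under IFNγ, and 3.57, 4.40 and 4.43 when both were given. Each agent alone thus lowered it, without overlap with the controls, while the combined samples overlapped those with SB-3CT alone and those with IFNγ alone. Addition of the separate effects would have left 1.09 FPKM, against 4.12 observed, a departure of 1.29 (standard error 0.20, adjusted p = 0.00374) and of 1.45 on the median-ratio scale. SB-3CT changed FABP7 by -0.92 without IFNγ and by 0.37 with it (adjusted p = 0.0023 and 0.048).

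CYB5R3, the gene of NADH-cytochrome b5 reductase, which supplies electrons for fatty acid desaturation and cholesterol synthesis, had the smallest adjusted p-value of the named genes (chromosome 22, 43011736 to 43116876). Its values were 21.5, 22.0 and 22.3 FPKM in the controls and 47.1, 48.8 and 47.4 with SB-3CT. They were 23.4, 22.2 and 22.4 with IFNγ and 20.7, 18.1 and 17.8 with both agents. SB-3CT alone thus raised the gene above every other sample, and no such rise was seen in cells that also had IFNγ. The departure was -1.35 (standard error 0.08, adjusted p = 7.24e-06) and -1.15 on the median-ratio scale. SB-3CT changed CYB5R3 by 1.09 without IFNγ and by -0.26 with it, and the latter was -0.03 after median-ratio scaling, where the gene was classed as masked in place of reversed.

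C1QTNF1, a secreted C1q- and TNF-related protein, followed the same pattern, with 2.04 to 2.31 FPKM in the controls, 3.64 to 4.79 under SB-3CT, 2.43 to 2.62 with IFNγ and 1.34 to 1.65 with both. The combined samples were the lowest of the 4 groups and the SB-3CT samples the highest (departure -1.18, standard error 0.13, adjusted p = 0.00139, and -1.05 on the median-ratio scale). FAM20C, the Golgi kinase that phosphorylates secreted proteins, rose with SB-3CT alone from 5.82 to 7.50 FPKM in the controls to 9.10 to 9.63. It also rose with IFNγ alone, to 13.6 to 16.7 FPKM, but lay at 8.55 to 9.73 with both agents, where addition would have given 20.6 FPKM (departure -1.12, standard error 0.13, adjusted p = 0.00139). CEP85, a centrosomal protein gene, had 5.79 to 6.37 FPKM in the controls, 7.84 to 8.12 with SB-3CT and 6.91 to 8.45 with IFNγ. Its combined samples, at 4.84 to 5.41 FPKM, lay below all 9 others, so that both agents had opposite effects alone and together (departure -0.86, adjusted p = 0.00216). CPT1A, the carnitine palmitoyltransferase that admits fatty acids to mitochondria for oxidation, rose by 0.32 with SB-3CT alone and fell by 0.39 with SB-3CT in IFNγ-treated cells, and its combined samples at 4.07 to 4.19 FPKM were again the lowest of the 12.

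Reversals in the other direction, with a fall alone and a rise in the presence of IFNγ, included those of the 3 genes below, besides FABP7. In all, 6 positive and 8 negative departures were classed as reversed on both scales. CSRP2, a LIM-domain protein of the actin cytoskeleton, had 76.2 to 89.5 FPKM in the controls, 59.7 to 65.0 under SB-3CT, 44.8 to 49.98 with IFNγ and 58.5 to 59.5 with both. Its SB-3CT change turned from -0.37 to 0.33 (departure 0.70, standard error 0.09, adjusted p = 0.00229). CCDC53, a subunit of the WASH complex that drives actin assembly on endosomes, had 18.2 to 20.2 FPKM in the controls and 18.1 to 20.4 with both agents. With SB-3CT alone it had 14.7 to 15.3 FPKM and with IFNγ alone 14.1 to 15.4, so each agent lowered it and the pair left it close to the range of the controls (departure 0.71, standard error 0.08, adjusted p = 0.00139). C12orf29 turned from -0.31 to 0.27 (departure 0.58, adjusted p = 0.00503). The departures of CSRP2, CCDC53, C12orf29, C1QTNF1, FAM20C, CEP85 and CPT1A kept their sign and their call on the median-ratio scale, with values of 0.91, 0.91, 0.78, -1.05, -0.93, -0.68 and -0.54, and so did those of FABP7 and CYB5R3.

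**Figure D2:**
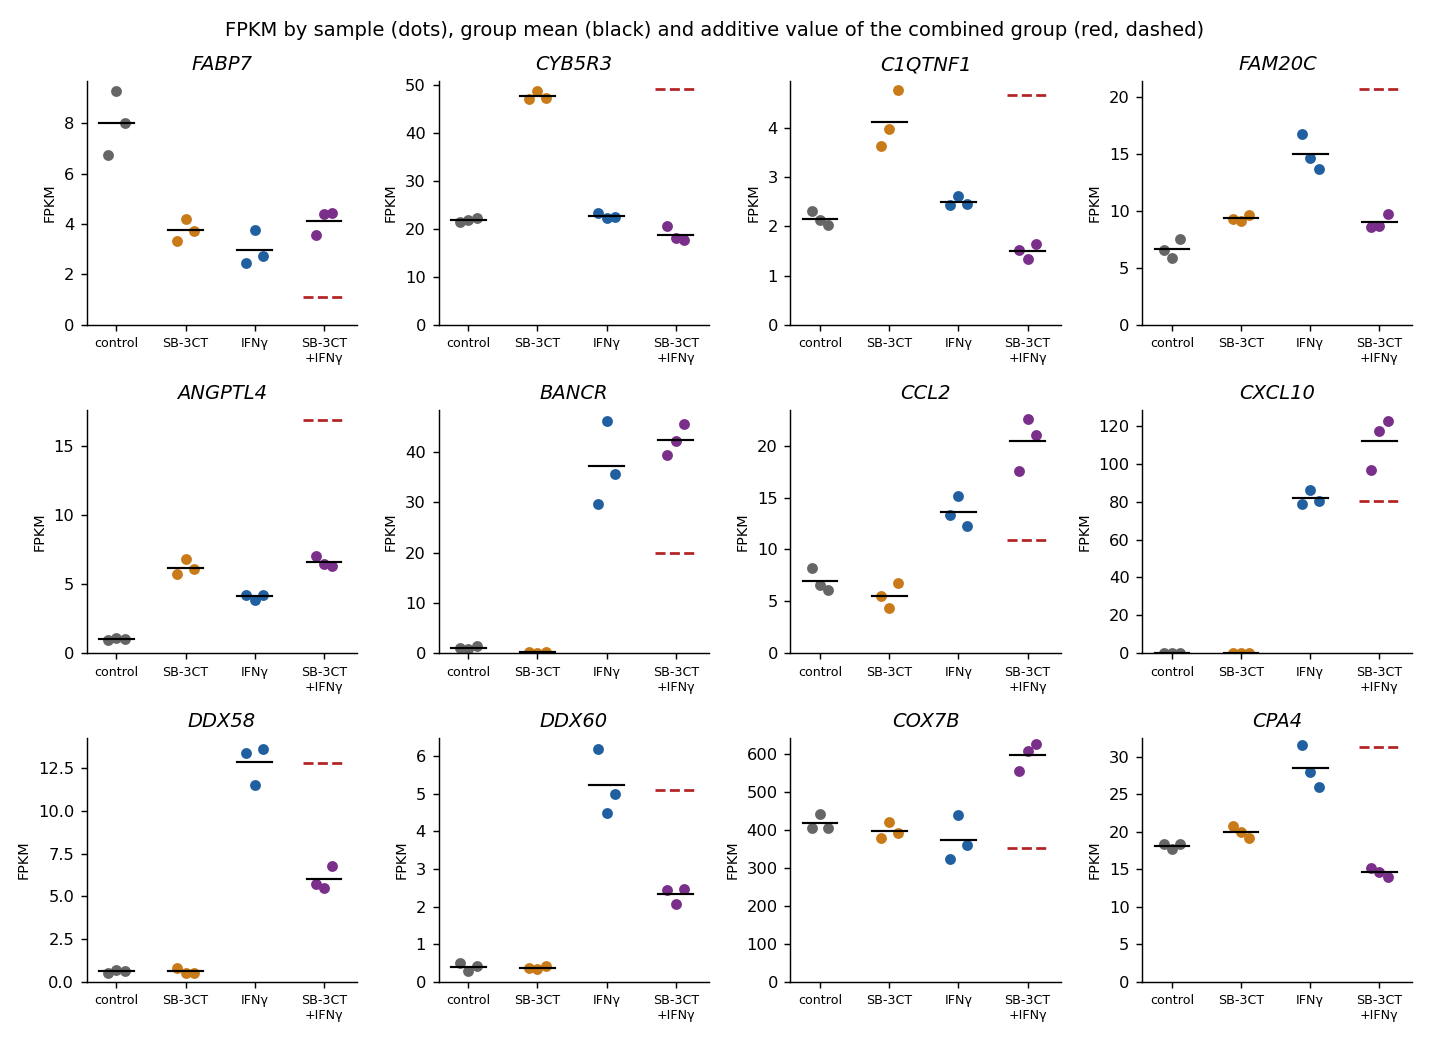
FPKM by sample (dots), with the mean of each group of 3 samples (black line) and the value that addition of the separate effects on the log2(FPKM + 1) scale gives for the combined group (red dashed line), for 12 departing genes. The combined samples of FABP7, BANCR, CCL2, CXCL10 and COX7B lie above the dashed line, and those of CYB5R3, C1QTNF1, FAM20C, ANGPTL4, DDX58, DDX60 and CPA4 below it.

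In some genes raised by each agent alone the pair fell short of the sum. ANGPTL4, a secreted inhibitor of lipoprotein lipase induced by fasting and hypoxia, measured 0.994, 1.11 and 1.06 FPKM in the controls, 5.71, 6.77 and 6.08 under SB-3CT, 4.20, 3.87 and 4.24 under IFNγ, and 7.03, 6.44 and 6.33 when both were given. The combined samples overlapped those with SB-3CT alone, whereas addition would have given 16.8 FPKM. The SB-3CT effect fell from 1.80 to 0.57 (departure -1.23, standard error 0.10, adjusted p = 0.000289, and -1.02 on the median-ratio scale), a weakened effect on both scales. ATF3, a stress-induced transcription factor, also fell short, with 3.89 to 4.22 FPKM in the controls, 7.30 to 8.21 under SB-3CT, 13.5 to 14.4 with IFNγ and 13.8 to 15.4 with both (departure -0.73, standard error 0.09, adjusted p = 0.00141). Its SB-3CT change was 0.79 without IFNγ and 0.06 with it. CDT1, which loads the replicative helicase at origins, had 14.9 to 17.5 FPKM in the controls and 24.4 to 24.6 with SB-3CT. It had 22.8 to 24.1 FPKM with IFNγ and 19.3 to 24.1 with both, and addition would have given 34.9 (departure -0.66, adjusted p = 0.00528). CAMK2N1, an inhibitor of calcium/calmodulin-dependent kinase II, had an SB-3CT effect of 0.63 alone and -0.16 with IFNγ (departure -0.79, adjusted p = 0.00653), the latter short of the threshold.

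Other SB-3CT effects passed the test only without IFNγ although IFNγ itself did less. DUSP1, the phosphatase that switches off stress and MAP kinases, rose from 8.53 to 9.72 FPKM in the controls to 16.8 to 17.4 under SB-3CT, and had 10.9 to 14.0 FPKM with both agents against 10.4 to 12.6 with IFNγ (departure -0.76, standard error 0.13, adjusted p = 0.00552). CDK2, the kinase of the G1/S transition, which in melanocytic cells lies next to a pigment gene and shares its regulation, had 51.7 to 54.2 FPKM in the controls and 72.8 to 79.9 with SB-3CT. With IFNγ it had 51.5 to 59.1 FPKM and with both 52.2 to 53.5, so the rise was seen in the cells without IFNγ (departure -0.59, standard error 0.08, adjusted p = 0.0023). FAM214B had an SB-3CT change of 0.37 alone and -0.19 with IFNγ (departure -0.56, adjusted p = 0.00729). After median-ratio scaling the SB-3CT changes of DUSP1, CDK2 and ATF3 in IFNγ-treated cells were 0.29, 0.16 and 0.29 and passed the test, so the 3 genes were weakened in place of masked on that scale.

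Falls with SB-3CT were also smaller, or passed the test no longer, in the presence of IFNγ. AGMO, the alkylglycerol monooxygenase that cleaves ether lipids, measured 20.7, 21.1 and 21.5 FPKM in the controls, 8.65, 9.43 and 9.35 under SB-3CT, 5.31, 6.21 and 5.59 under IFNγ, and 3.74, 3.99 and 4.33 when both were given. The pair gave the lowest samples, but 4.01 FPKM observed was above the 2.07 that addition gives (departure 0.71, standard error 0.09, adjusted p = 0.00254, and 0.87 on the median-ratio scale). The SB-3CT change of AGMO went from -1.12 to -0.42, a weakened effect, which on the median-ratio scale (-0.22) was classed as masked. EIF3E, a subunit of translation initiation factor eIF3, had 270 to 301 FPKM in the controls, 182 to 227 under SB-3CT, 197 to 220 with IFNγ and 205 to 260 with both (departure 0.66, adjusted p = 0.00841), and its fall with SB-3CT was masked on the deposited scale and reversed on the median-ratio scale. F8A3 had 19.6 to 25.3 FPKM in the controls and between 10.1 and 13.8 in the 9 treated samples (departure 0.72, adjusted p = 0.00859), and has near-identical copies, F8A1 and F8A2, with which it can share reads. CLPSL2 and DLEU2, a long non-coding RNA, departed by 0.54 and 0.58 (adjusted p = 0.0261 and 0.022), calls that were lost in 6 and 3 of the 12 fits without a single library, with CLPSL2 between 0.892 and 2.04 FPKM in all samples.

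Effects of SB-3CT that passed the test only with IFNγ belonged more often to negative than to positive departures on the deposited scale, with 618 negative and 148 positive genes, and the reverse on the median-ratio scale, with 166 and 272. CPA4, a secreted carboxypeptidase, measured 18.4, 17.6 and 18.4 FPKM in the controls, 20.7, 20.0 and 19.1 under SB-3CT, 31.6, 28.0 and 25.9 under IFNγ, and 15.2, 14.6 and 14.0 when both were given. IFNγ alone raised it, and with SB-3CT added it was lower than in any other group (departure -1.05, standard error 0.09, adjusted p = 0.000289, and -0.85 on the median-ratio scale). ERRFI1, the feedback inhibitor of the EGF receptor, had 44.8 to 48.4 FPKM in the controls, 48.6 to 54.7 under SB-3CT, 54.2 to 70.5 with IFNγ and 37.2 to 38.5 with both (departure -0.86, standard error 0.12, adjusted p = 0.00301). AMOTL1, an angiomotin that holds the Hippo effector YAP at cell junctions, lay between 16.1 and 20.3 FPKM in the 9 samples without the combination and at 9.86 to 10.4 with it (departure -0.73, standard error 0.10, adjusted p = 0.0032). ARNT2, a partner of hypoxia and aryl hydrocarbon receptor factors, lay between 10 and 13.3 FPKM in the 9 samples and at 6.97 to 7.41 with both agents (departure -0.72, adjusted p = 0.00552). In AMOTL1 and ARNT2 neither agent alone changed the gene at the threshold, but each did so in cells given the other.

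Emerging rises included genes of mitochondria and the cell cycle. COX7B, a small subunit of cytochrome c oxidase, measured 407, 444 and 407 FPKM in the controls, 380, 421 and 392 under SB-3CT, 324, 441 and 360 under IFNγ, and 556, 610 and 628 when both were given. The combined samples were all higher than the other 9, where addition would have given 353 FPKM (departure 0.76, standard error 0.14, adjusted p = 0.00614, and 0.96 on the median-ratio scale). C4orf3 had 19.9 to 30.8 FPKM without the combination and 35.3 to 37.3 with it (departure 0.77, adjusted p = 0.0126). CKS2, a small protein that binds cyclin-dependent kinases, had 473 to 676 FPKM without the combination and 833 to 894 with it (departure 0.66, adjusted p = 0.0136). CT45A7, a cancer-testis gene, had 126 to 151 FPKM in the controls, 102 to 112 FPKM under SB-3CT, 73.4 to 124 with IFNγ and 124 to 136 with both (departure 0.83, adjusted p = 0.0171), and reads of its near-identical paralogs cannot be told apart from its own. Of the strengthened genes CKS1B, the close relative of CKS2, rose by 0.20 with SB-3CT alone and by 0.52 with IFNγ present (departure 0.31, adjusted p = 0.00778), while CCNE2, cyclin E2, changed by -0.42 and -0.90 (departure -0.48, adjusted p = 0.0104).

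Seen from IFNγ, the same classes describe how SB-3CT changed the IFNγ response. On the deposited scale 600 of the 1099 genes had an IFNγ effect that passed only with SB-3CT, 218 one that passed only without it, 88 a weakened, 78 a reversed and 73 a strengthened effect, and 42 had neither. On the median-ratio scale the counts among the 657 genes were 278, 176, 63, 73 and 36, with 31 in neither. Of the 314 genes of the 506 that were classed alike on both scales, 173 were emerging, 61 masked, 38 weakened, 22 strengthened and 18 reversed, and 2 had neither effect called. The weakened class was mostly one of negative departures, 32 of 38. Positive departures predominated in the reversed class, 12 of 18.

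A set of 30 genes with a mean IFNγ change of at least 4-fold over the settings with and without SB-3CT was examined, a choice made after the data were seen. On the deposited scale 14 of the 30 departed negatively and 3 positively, against 17.6% and 4.74% of all genes. The median departure was -0.31, against -0.09 over all genes. On the median-ratio scale it was 10 negatively and 6 positively, against 5.59% and 7.77%, with a median of -0.10 against -0.01. On both scales 10 were negative (33.3%, against 5.59% of all genes) and 3 positive (10%, against 4.70%). The 10 genes were DDX58, APOL6, CMPK2, APOL3, CEACAM1, DTX3L, ACSL5, APOL1, CSF1 and CIITA, and the 3 were BANCR, CXCL10 and AIM2.

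**Figure D3:**
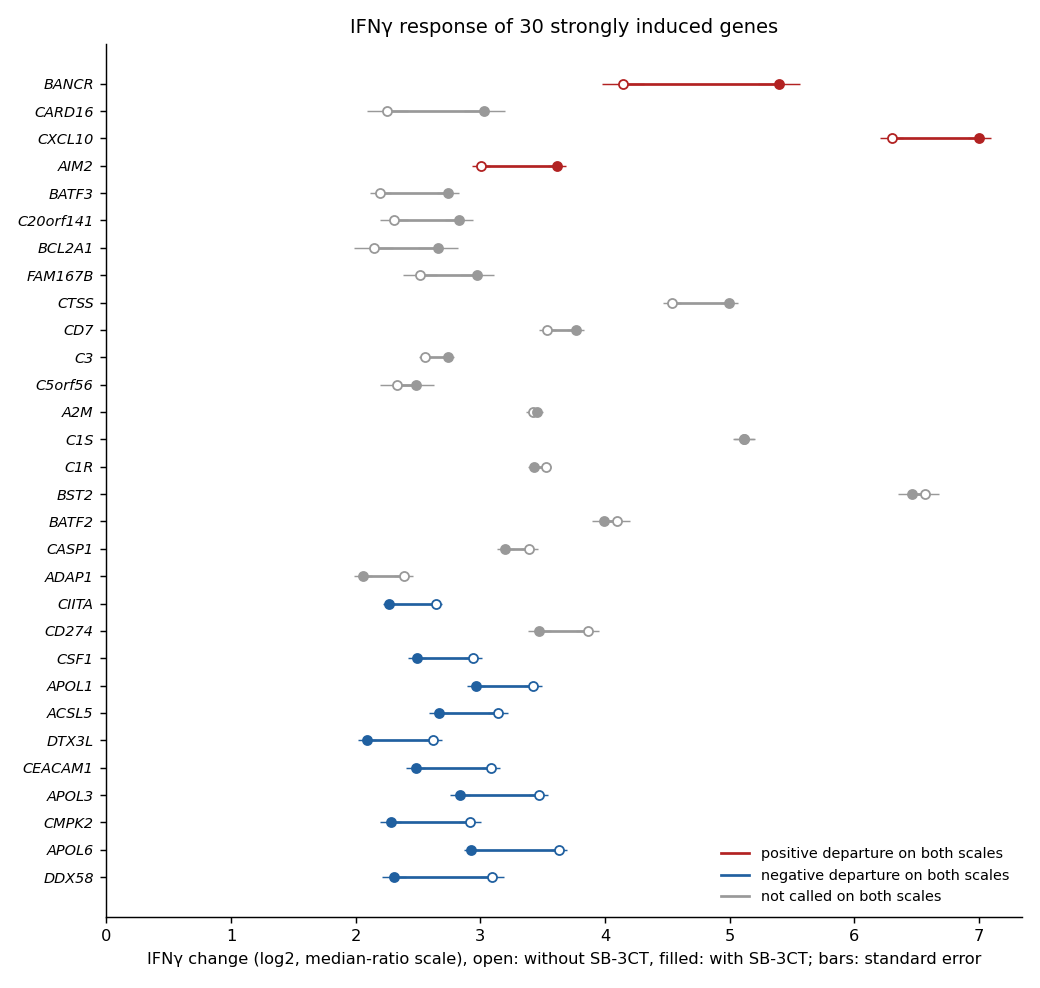
IFNγ change of 30 strongly induced genes (horizontal axis, log2 on the median-ratio scale) without SB-3CT (open circles) and with SB-3CT (filled circles), with standard errors as bars. Genes are ordered by their departure, from BANCR, CARD16 and CXCL10 at the top, where the filled circle lies to the right, to CMPK2, APOL6 and DDX58 at the bottom, where it lies to the left.

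Antiviral effector genes that departed did so in the negative direction. DDX58 encodes RIG-I, the cytosolic sensor of viral RNA with a 5′ triphosphate (chromosome 9, 32455300 to 32526206). It measured 0.512, 0.694 and 0.613 FPKM in the controls and 0.820, 0.516 and 0.503 with SB-3CT. IFNγ raised it to 13.4, 11.5 and 13.6 FPKM, and to 5.72, 5.52 and 6.80 with SB-3CT present. SB-3CT thus made no difference that passed the test without IFNγ, and the combined samples lay below all 3 IFNγ samples (departure -0.99, standard error 0.15, adjusted p = 0.00374, and -0.79 on the median-ratio scale). DDX60, a helicase that assists RIG-I, had 0.272 to 0.492 FPKM in the controls, 0.329 to 0.417 under SB-3CT, 4.50 to 6.19 with IFNγ and 2.06 to 2.46 with both (departure -0.88, standard error 0.14, adjusted p = 0.00522). Of 17 measured antiviral effector genes, 8 departed on both scales, all negatively, against 5.59% of all genes: DDX58, DDX60, DDX60L, CMPK2, DTX3L, ADAR, EIF2AK2 and EPSTI1. EIF2AK2 (the kinase PKR) fell from 20.9 to 26.1 FPKM with IFNγ to 10.6 to 12.5 with both, and ADAR, which edits adenosine to inosine in double-stranded RNA, from 66.1 to 84.2 to 42.7 to 44.2. Their departures were -0.74 and -0.74 (adjusted p = 0.0113 and 0.00358). The median of the 17 genes was -0.42 on the deposited scale and -0.26 on the median-ratio scale, against -0.09 and -0.01 over all genes.

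The interferon genes also differed in direction although several share a promoter motif. An ISRE core (GAAA, any 2 bases, then GAAA, on either strand) was searched in the 250 bases before the start sites of RefSeq genes, and 839 of 27305 promoters (3.07%) held it. Of 45 measured genes in the IFNγ response and antiviral lists 27 had a promoter in the table, and 7 of these held the motif (25.9%). Among the list members that departed on both scales it was found in 3 of 9 with a negative and 2 of 2 with a positive departure. The windows of these 5 genes are shown because they place the same motif before genes that depart in opposite directions. Each is written on its own strand with the motif in capitals and 25 flanking bases, and was placed on GRCh37 by exact match of the RefSeq sequence, taken from GRCh38.p14.
DDX60, minus strand, chr4:169239922-169240016: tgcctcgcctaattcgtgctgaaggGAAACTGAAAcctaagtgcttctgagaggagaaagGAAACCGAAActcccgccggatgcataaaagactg
EPSTI1, minus strand, chr13:43566393-43566452: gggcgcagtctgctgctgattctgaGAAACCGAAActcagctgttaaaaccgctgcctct
DDX60L, minus strand, chr4:169401659-169401748: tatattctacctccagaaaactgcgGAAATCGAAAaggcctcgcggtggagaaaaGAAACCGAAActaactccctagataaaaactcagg
CXCL10, minus strand, chr4:76944837-76944896: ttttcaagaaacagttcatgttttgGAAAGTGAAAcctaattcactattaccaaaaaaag
B2M, plus strand, chr15:45003546-45003611: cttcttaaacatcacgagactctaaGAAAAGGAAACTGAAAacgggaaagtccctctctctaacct
The first 3 departed negatively and the last 2 positively on both scales. After removal of the length trend described at the end, the departures of CXCL10 (0.35), B2M (0.12) and DDX60L (-0.10) were no longer called. In B2M the 2 matches overlap, and in DDX60 and DDX60L there are 2 separate matches. A GAS core (TTCNNNGAA) was in 6.78% of all promoters, in 2 of the 9 negative members, DDX60 and EPSTI1, and in 0 of the 2 positive ones. A match is a sequence description and no measurement of binding.

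CXCL10, the chemokine that draws CXCR3-bearing T cells, was listed at 0 in 2 of 3 controls, at 0.05 FPKM in the third, and at 0 in the 3 SB-3CT samples. It measured 78.7, 86.2 and 80.3 FPKM with IFNγ and 96.5, 117 and 122 with both. The combined samples were all higher than the IFNγ samples (departure 0.47, standard error 0.11, adjusted p = 0.0159, and 0.70 on the median-ratio scale). CCL2, the monocyte-attracting chemokine, had 6.13 to 8.19 FPKM in the controls, 4.40 to 6.74 under SB-3CT, 12.2 to 15.2 with IFNγ and 17.6 to 22.6 with both (departure 0.84, standard error 0.20, adjusted p = 0.0154). CXCL8, the neutrophil-attracting interleukin 8, was lowered by IFNγ, from 20.1 to 24.5 FPKM in the controls to 9.93 to 10.3, and less so under SB-3CT, from 20.5 to 23.2 to 13.4 to 15.4 (departure 0.52, standard error 0.11, adjusted p = 0.0091). CCL3 stayed under 1 FPKM in all samples and departed by 0.51. These were the 4 of 14 measured chemokine genes that departed on both scales, all positively, against 4.70% of all genes. With the length trend removed, 1 of the 14, CXCL8, was called as positive and 2 others as negative. On the deposited scale 4 others departed negatively, against 17.6% of all genes, and none of these was called on the median-ratio scale.

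B2M, the light chain of MHC class I, had a small positive departure, with 972 to 1242 FPKM without IFNγ, 4086 to 4377 with it and 4452 to 4588 with both agents (departure 0.29, standard error 0.09, adjusted p = 0.0435), which was 0.12 and not called after removal of the length trend (adjusted p = 0.33). CIITA, the master regulator of MHC class II genes, departed negatively, with 12.7 to 14.8 FPKM without IFNγ, 80.2 to 92.0 with IFNγ and 59.2 to 64.6 with both (departure -0.58, standard error 0.08, adjusted p = 0.00358). ERAP1, the aminopeptidase that trims peptides for MHC class I, had 31.8 to 37.8 FPKM with IFNγ and 21.6 to 22.6 with both, and BTN3A2, a butyrophilin of the family recognised by γδ T cells, 12.5 to 15.9 and 8.23 to 9.25. Their departures were -0.63 and -0.59 (adjusted p = 0.00738 and 0.00914), and BTN3A2 can share reads with its close paralogs. B2M, CIITA and ERAP1 were the 3 of 11 measured antigen presentation genes called on both scales. Of 4 measured apolipoprotein L genes, which encode channel-forming proteins of innate immunity, APOL6, APOL3 and APOL1 were negative on both scales. APOL6 had 28.1 to 35.0 FPKM with IFNγ and 18.6 to 19.4 with both (departure -0.91, standard error 0.12, adjusted p = 0.00229), and APOL3 had 14.2 to 18.9 and 11.1 to 11.6 (departure -0.85, adjusted p = 0.00497). The fourth, APOL2, had a departure of 1.05 with a standard error of 0.69 and was not called. CEACAM1, an adhesion receptor that restrains T cells, had 13.4 to 16.0 FPKM with IFNγ and 9.31 to 10.2 with both (departure -0.81, adjusted p = 0.00378). Without IFNγ, SB-3CT changed APOL6, APOL3 and CEACAM1 by 0.24, 0.32 and 0.29 on the median-ratio scale. With IFNγ it changed them by -0.47, -0.32 and -0.32. All these changes passed the test, so the SB-3CT effect was classed as reversed on that scale. As deposited it was classed as emerging.

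CD274, the gene of PD-L1 (chromosome 9, 5450503 to 5470566), measured 0.565, 0.428 and 0.635 FPKM in the controls, 0.534, 0.808 and 0.548 under SB-3CT, 23.9, 19.3 and 21.9 under IFNγ, and 13.6, 14.4 and 16.2 when both were given. The SB-3CT samples overlapped the controls, and the combined samples lay below the IFNγ samples. The departure was -0.60 (standard error 0.14, adjusted p = 0.0154) on the deposited scale. On the median-ratio scale it was -0.39, of the same sign, and missed the threshold (adjusted p = 0.0765), so the departure of CD274 was called on the deposited scale only. The SB-3CT change in IFNγ-treated cells was called on both scales. It was -0.53 as deposited and -0.30 on the median-ratio scale (limma, adjusted p = 0.0016 and 0.025). Without IFNγ the SB-3CT change was 0.08 and 0.09 and was not called.

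BANCR, a long non-coding RNA first described in BRAF-mutant melanoma cells, was raised further by the pair than addition gives. It measured 1.11, 0.945 and 1.35 FPKM in the controls and 0.226, 0 and 0.348 with SB-3CT. It reached 29.7, 46.1 and 35.7 FPKM with IFNγ and 39.5, 42.2 and 45.6 with both. The SB-3CT samples were lower than the controls, and with IFNγ the groups with and without SB-3CT overlapped (departure 1.06, standard error 0.21, adjusted p = 0.00835, and 1.25 on the median-ratio scale). The SB-3CT change was -0.85 without IFNγ and 0.21 with it, and the latter was not called. The BANCR departure thus rests largely on samples without IFNγ, at 1.35 FPKM or less, and it was not called on the linear FPKM scale. AIM2, the cytosolic DNA sensor, was lowered by SB-3CT from 5.41 to 6.54 FPKM to 3.14 to 3.32, and in IFNγ-treated cells from 50.4 to 55.2 to 40.1 to 47.2. Its departure was 0.41 (standard error 0.10, adjusted p = 0.0171), since the fall with SB-3CT was smaller in the presence of IFNγ.

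Outside the interferon genes, negative departures were found in growth and proliferation genes. In some of these the IFNγ effect passed the test only without SB-3CT, or turned with it. Of 22 measured immediate early, MAPK and YAP target genes, 9 were negative on both scales and none positive, against 5.59% and 4.70% of all genes: AMOTL1, ANKRD1, ATF3, AXL, CCND1, CYR61, DUSP1, DUSP7 and EPHA2. They did not share one class: on the IFNγ side AMOTL1 was emerging and ATF3 weakened, on both scales. ANKRD1, a YAP target, had 3.83 to 4.50 FPKM in the controls, 3.05 to 4.53 under SB-3CT, 5.70 to 7.69 with IFNγ and 2.93 to 3.38 with both (departure -0.80, standard error 0.18, adjusted p = 0.0114). AXL, a receptor kinase of the dedifferentiated melanoma state, had 39.9 to 42.8 FPKM in the controls and 44.7 to 48.2 under SB-3CT. It had 52.95 to 60.3 FPKM with IFNγ and 41.2 to 44.1 with both. CCND1, cyclin D1, had 99.9 to 106 FPKM in the controls and 110 to 125 under SB-3CT. It had 118 to 144 FPKM with IFNγ and 102 to 106 with both. The departures of AXL and CCND1 were -0.58 and -0.51. In AXL, CCND1 and ANKRD1 a rise with IFNγ passed the test only in the cells without SB-3CT, on both scales. ENG, the TGF-beta co-receptor endoglin, had 31.6 to 33.2 FPKM in the controls and 33.65 to 36.4 under SB-3CT. It had 44.3 to 46.7 FPKM with IFNγ and 35.0 to 37.5 with both (departure -0.44, adjusted p = 0.0032). Its IFNγ effect was masked on the deposited and weakened on the median-ratio scale. The median of the 22 genes was -0.41 on the deposited and -0.22 on the median-ratio scale.

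Of 31 measured DNA replication genes, 10 were negative and 1 positive on both scales, against 5.59% and 4.70% of all genes. Of the 31, 30 had a mean of at least 1 FPKM, where calls were more frequent than over all genes. CLSPN, the checkpoint adaptor claspin, had 4.36 to 5.18 FPKM in the controls, 3.46 to 5.27 under SB-3CT, 5.53 to 7.45 with IFNγ and 2.95 to 3.19 with both (departure -0.76, standard error 0.18, adjusted p = 0.0143). DTL, which directs CDT1 to degradation, had 8.25 to 10.1 FPKM in the controls, 10.09 to 11.05 under SB-3CT, 11.5 to 13.6 with IFNγ and 7.78 to 8.76 with both (departure -0.73, standard error 0.12, adjusted p = 0.00497). The other negative members were ASF1B, CCNE2, CDC45, CDC6, CDT1, CHAF1A, E2F7 and EXO1, and the positive one was ASF1A (departure 0.44, adjusted p = 0.0163). The histone chaperone pair ASF1A and ASF1B thus departed in opposite directions, ASF1B by -0.57 (adjusted p = 0.00541), and both signs were the same on the median-ratio scale, 0.63 and -0.37. Of 41 mitosis genes 6 were negative and 3 positive on both scales, the latter a share near that of all genes. BUB1B, a kinase of the spindle checkpoint, had 8.58 to 13.4 FPKM without the combination and 6.46 to 7.24 with it (departure -0.63, adjusted p = 0.0087), and the positive members CKS1B, CKS2 and CDKN3 are short genes of small cell cycle proteins. Of 39 chromatin remodelling genes 7 were negative and none positive on both scales, among them BAZ1B (departure -0.65, adjusted p = 0.0124) and ARID4B (-0.64, adjusted p = 0.00835). On the deposited scale, alone or with the other, 21 were negative, against 17.6% of all genes. The medians on the median-ratio scale were -0.25 for replication, -0.15 for mitosis and -0.28 for chromatin genes.

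Genes of ATP synthase and the end of the respiratory chain moved the other way. Of 28 measured genes, 22 departed positively on both scales, against 4.70% of all genes, and none negatively, with a median departure of 0.51 on the deposited and 0.72 on the median-ratio scale. The summed FPKM of the 28 genes was 13500 to 14500 in the controls, 12900 to 14300 under SB-3CT and 11200 to 14200 with IFNγ. With both agents it was 17000 to 17600, without overlap with the other 9 libraries. ATP5C1, the gamma subunit of ATP synthase, had 197 to 225 FPKM in the controls, 187 to 195 under SB-3CT, 146 to 177 with IFNγ and 228 to 237 with both (departure 0.67, standard error 0.10, adjusted p = 0.00358). ATP5O, the subunit that joins its stalk to the catalytic head, had 223 to 234, 193 to 215, 162 to 202 and 255 to 270 FPKM in the same order (departure 0.70, standard error 0.10, adjusted p = 0.00358). In both genes an IFNγ effect that was a fall without SB-3CT was a rise with it, on both scales. DBI, the acyl-CoA-binding protein, showed the same reversal, with 175 to 234 FPKM with IFNγ and 271 to 296 with both against 253 to 282 in the controls (departure 0.75, standard error 0.13, adjusted p = 0.00552). The IFNγ samples were uneven in ATP5C1, ATP5O and DBI: replicate 2 lay above replicates 1 and 3, though below the controls. In ATP5C1 it had 177 FPKM against 146 and 155, so the IFNγ fall was larger in replicates 1 and 3. ATP5G3, a subunit of the membrane ring, had a departure of 0.74 (adjusted p = 0.0246), a call that was lost in 7 of the 12 fits that left out a single library. Small respiratory genes have processed pseudogenes, whose reads the counting may have shared.

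In the remaining lists the shares called on both scales are to be read against 4.70% positive and 5.59% negative over all genes, and several lay near them. Of 47 translation factors 5 were positive and 4 negative on both scales, and 20 were negative on the deposited scale, against 17.6% of all genes. The positive ones were EIF3E, EIF3K, EIF3M, EEF1B2 and EEF1E1 (0.61 for EEF1E1, a scaffold of aminoacyl-tRNA synthetases, adjusted p = 0.00559), and the negative ones were EIF3C, EIF4B, EIF4G1 and EIF4G2, so subunits of eIF3 departed in both directions. EIF3C shares reads with a near-identical copy. Of 20 ATF4-CHOP stress genes 1, ATF3, was called on both scales, and of 21 ER stress and degradation genes 1, DNAJB9, an ER-resident chaperone regulator (departure 0.36, adjusted p = 0.0249, not called in 4 of the 12 fits without a single library). Of 16 NRF2 target genes 3 were negative on the deposited scale (17.6% of all genes) and 5 positive on the median-ratio scale (7.77% of all genes). By limma 0 were called on both. Of 19 cholesterol and fatty acid genes CYB5R3, ACLY and ACACB were negative and FABP5 positive. FABP5, the epidermal fatty acid-binding protein, had 119 to 173 FPKM without the combination and 204 to 212 with it (departure 0.50, standard error 0.09, adjusted p = 0.00559). The relatives FABP7 and FABP5 thus both departed positively, FABP7 from a fall with SB-3CT alone and FABP5 from a change of 0.19 that missed the threshold. Of 16 hypoxia genes ANGPTL4, EPAS1 and CA9 were negative, with CA9, a carbonic anhydrase, at -0.47 (adjusted p = 0.00962). Of 27 caspase and cell death genes CASP2 and BMF were negative, by -0.57 and -0.51 (adjusted p = 0.00913 and 0.00552), BMF from values under 1 FPKM in all 12 samples. Among the genes of no list, EWSR1, an RNA-binding protein, had 73.5 to 91.8 FPKM without the combination and 67.5 to 71.6 with it (departure -0.53, standard error 0.07, adjusted p = 0.00319).

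**Figure D4:**
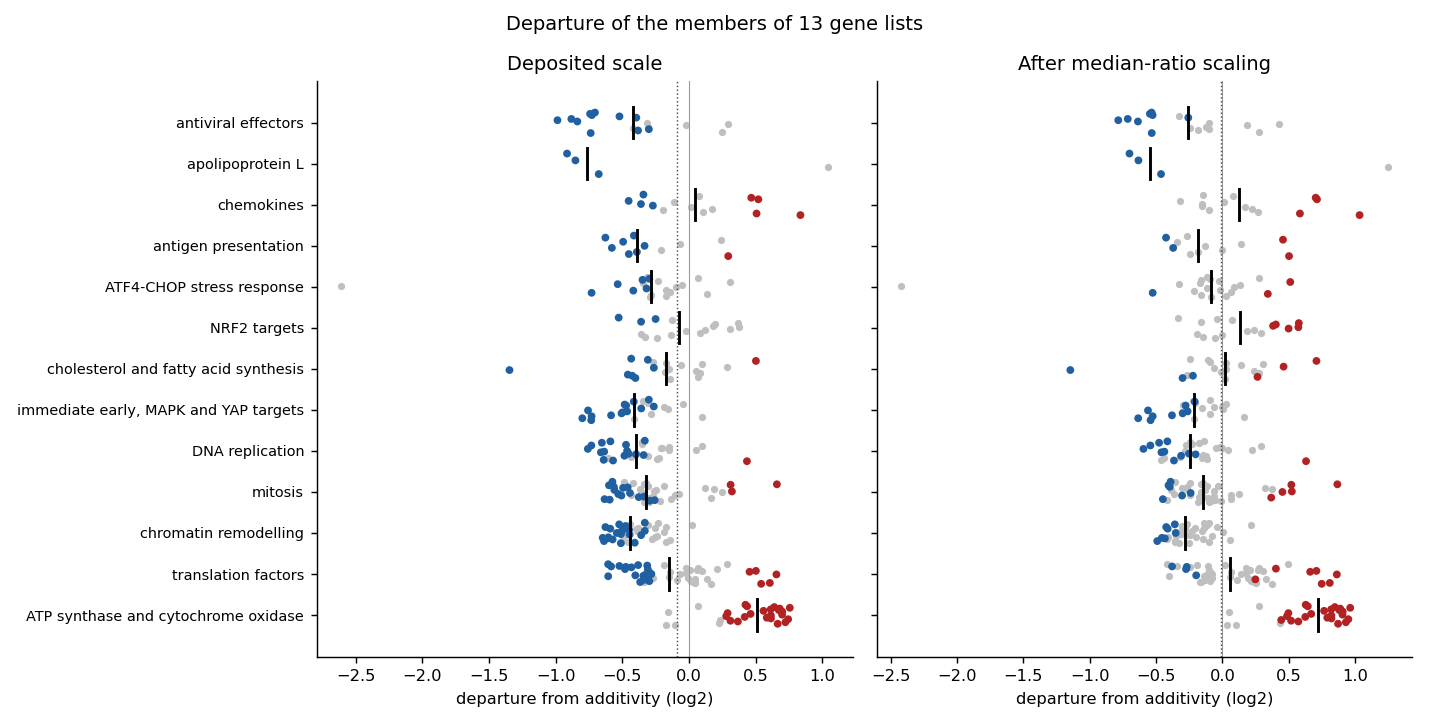
Departure from additivity (horizontal axis, log2) of each measured member of 13 gene lists on the deposited scale (left) and after median-ratio scaling (right). Red points are positive and blue points negative departures at an adjusted p-value under 0.05 on that scale, grey points are not called, black bars are list medians and the dotted line is the median of all genes, -0.09 and -0.01. ATP synthase and cytochrome oxidase genes lie to the right (medians 0.51 and 0.72), and antiviral, replication, chromatin and MAPK and YAP genes to the left.

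The sign of the departure went with transcript length. The canonical transcripts of the 231 genes positive on both scales had a median length of 1413 bases and those of the negative genes 4555.5 bases, against 2957 over all genes. In the quartile of genes with the shortest transcripts (249 to 1869 bases, mean of at least 1 FPKM) the median departure on the median-ratio scale was 0.24. Of its 789 genes 138 were positive and 5 negative on both scales. In the quartile with the longest (4870 to 24709 bases) the median was -0.16, with 11 positive and 105 negative genes of 789. In the shortest quartile the median SB-3CT change on that scale was 0.06 without IFNγ and 0.30 with it, and in the longest -0.08 and -0.23. The 28 ATP synthase and cytochrome oxidase genes had a median length of 750 bases and the chromatin genes one of 7652, so these lists moved with length, and the part of length in their departures was not tested. Their counts on both scales, 22 positive of 28 and 7 negative of 39, are best read against those of the quartiles.

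After each library was corrected for its own trend with length, at an unchanged FPKM sum, 407 genes departed (8.28%), 234 positively (4.76%) and 173 negatively (3.52%). Of the 506 genes, 256 were still called with their sign, 146 positive and 110 negative, and 10 had the opposite sign. Of the ATP synthase and cytochrome oxidase genes 11 were called as positive, with a median departure of 0.22. Of the chromatin genes 4 were negative (median -0.135), and of the immediate early, MAPK and YAP targets 7 (median -0.149). The replication genes held 6 negative and 1 positive (median -0.172), and the mitosis genes 5 and 2 (median -0.135). Of the 17 antiviral genes 8 were negative, with a median of -0.34 against -0.01 over all genes, and of the 30 strongly induced genes 9 were negative and 4 positive. These are not all the genes called on both scales before. Among those that dropped out were the antiviral DDX60L and the induced CXCL10 and CIITA. Among those newly called were the induced C3 (0.34) and ADAP1 (-0.38). The names given for losses and gains are not complete. FABP7 (1.11), CYB5R3 (-1.13), C1QTNF1 (-1.04), FAM20C (-0.93), ANGPTL4 (-1.14), CPA4 (-0.85), DDX58 (-0.63), COX7B (0.93) and AGMO (0.85) kept their calls. CD274 (-0.30), CXCL10 (0.35), CCL2 (0.58), CIITA (-0.13), ERAP1 (-0.29), BTN3A2 (-0.31), CKS2 (0.31), FABP5 (0.19), CT45A7 (0.64), CASP2 (-0.30) and CLPSL2 (0.30) kept their sign and were not called.

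**Figure D5:**
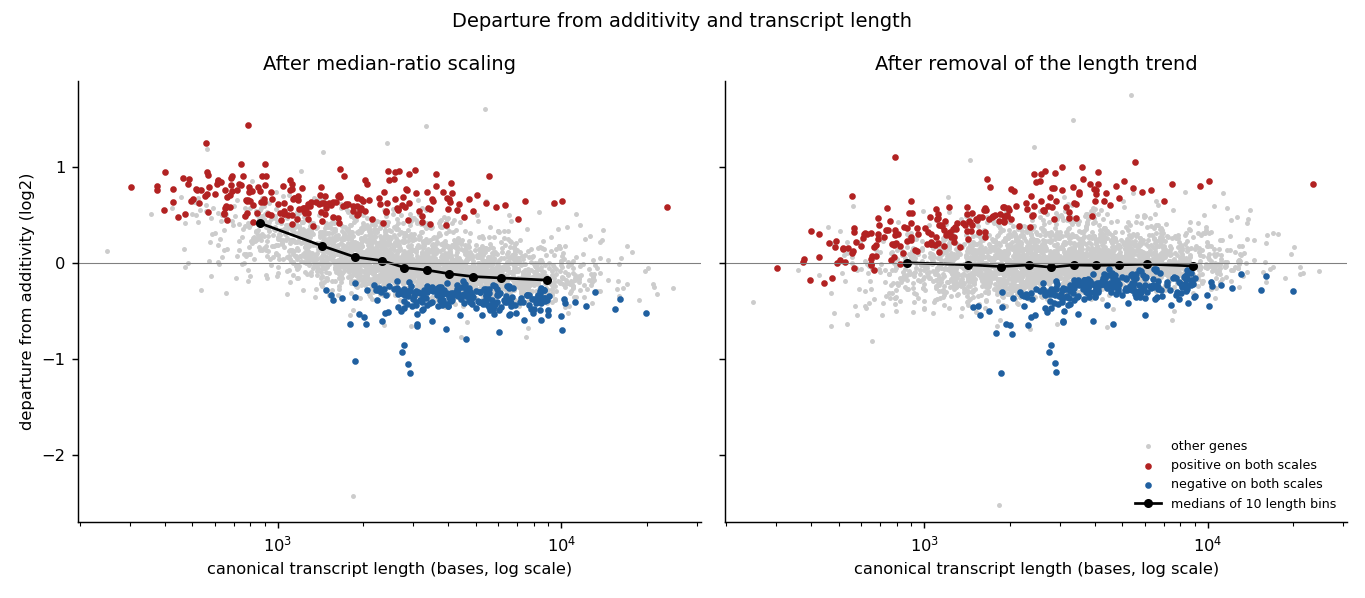
Departure from additivity (vertical axis, log2) against the length of the canonical transcript (horizontal axis, bases, log scale) after median-ratio scaling (left) and after removal of the length trend of each library (right). Red and blue points are genes with a positive (231) or negative (275) departure on both scales, and the black line joins the medians of 10 length bins. The line falls with length on the left, and is nearly level on the right, where most red points still lie above 0 and most blue points below it.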

How the data were processed

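RNA of 12 A375 samples, 3 in each of 4 groups, was measured as one table. The authors aligned reads with HISAT2 2.0.5 and estimated expression with StringTie 1.3.3 per the labels, and deposited log2 values whose range and low steps fit log2(FPKM + 1), with a pseudocount of 1. The strand setting and the annotation version were not given in the sources used here, and without absolute depths no interval for counting error could be computed. Relative depth was read from the lowest FPKM values (up to 0.15), with 66 of 66 library pairs within 0.05 on the log2 scale.

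One limma 3.58.1 fit (R 4.3.3, group means, eBayes with trend) of all 12 samples gave the interaction and the separate changes for 4918 genes, with Benjamini-Hochberg adjustment over all genes and a threshold of 0.05. It was repeated after median-ratio scaling over genes above 0 in all 12 samples with a mean of at least 1 FPKM, and after removal of each library's length trend (lowess, span 0.3). The fits were tested on simulated data. The test had been planned for FPKM and was applied to the deposited log2 values as they stand. Lengths are those of canonical GENCODE transcripts, with 99.1% of symbols given a length. The GRCh37 coordinates of named genes are those of whole GENCODE genes, and promoters are from RefSeq (GRCh38.p14).

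Named genes were CD274 and CXCL10, the 4 highest and 4 lowest departures of each class pair on the SB-3CT and on the IFNγ side (mean of at least 1 FPKM, classed alike on both scales), and the 2 largest departures called on both scales in each of 26 gene lists. One gene that this rule and the strong-induction rule choose is not reported here. Other genes named were chosen after their values were seen. The members and lists were chosen with earlier results of these data known. Alternatives were other scalings, pseudocount, filter, variance settings, thresholds, a replicate block and each library left out.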

Additional observations from a re-analysis of the deposited data

Results flagged for a closer look

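The results below were singled out because the change made by SB-3CT differed between cells with and without IFNγ by a test of the difference itself (limma, adjusted p under 0.05 on the deposited scale). The test called 1099 genes in all. Among the named genes the departures in the positive direction of at least 0.7 on the log2 scale were those of FABP7 (1.29), BANCR (1.055), CCL2 (0.84), CT45A7 (0.83), C4orf3 (0.765), COX7B (0.76), DBI (0.75), ATP5G3 (0.74), F8A3 (0.72), CCDC53 (0.71), AGMO (0.71) and CSRP2 (0.70). Smaller positive departures were those of ATP5O (0.70), ATP5C1 (0.67), CKS2 (0.66), EIF3E (0.66), EEF1E1 (0.61), C12orf29 (0.58), DLEU2 (0.58), CLPSL2 (0.54), CXCL8 (0.52), FABP5 (0.50), CXCL10 (0.47) and DNAJB9 (0.36). The negative departures of at least that size were those of CYB5R3 (-1.35), ANGPTL4 (-1.23), C1QTNF1 (-1.18), FAM20C (-1.12), CPA4 (-1.05), DDX58 (-0.99), APOL6 (-0.91), DDX60 (-0.88), CEP85 (-0.86), ERRFI1 (-0.86), APOL3 (-0.85), CEACAM1 (-0.81), ANKRD1 (-0.80), CAMK2N1 (-0.79), CLSPN (-0.76), DUSP1 (-0.76), AMOTL1 (-0.73), DTL (-0.73), ATF3 (-0.73), ARNT2 (-0.72) and CPT1A (-0.72). Smaller negative departures were those of CDT1 (-0.66), BAZ1B (-0.65), ARID4B (-0.64), BUB1B (-0.63), ERAP1 (-0.63), CD274 (-0.60), CDK2 (-0.59), BTN3A2 (-0.59), CIITA (-0.58), CASP2 (-0.57), FAM214B (-0.56), EWSR1 (-0.53), BMF (-0.51), CA9 (-0.47) and ENG (-0.44). CD274 was not called on the median-ratio scale, and the other named genes were.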

How the results depend on the processing

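The counts of genes departing from additivity (1099), of genes with a positive departure (233) and of genes with a negative departure (866) rested on the scaling and on the size asked for. Median-ratio scaling gave 657 (382 positive and 275 negative), quantile normalization 640 (345 negative) and removal of the length trend 407 (173 negative). A departure over 1.5-fold in addition to the adjusted p left 149 (48 and 101), and an unadjusted p under 0.05 with a departure over 0.5 gave 353 (93 and 260). Leaving out 1 library at a time gave 678 to 1450 genes, 161 to 272 positive and 517 to 1178 negative, with 297 to 607 genes departing on both scales. The lowest counts came without control replicate 2 (678, and 297 on both scales), IFNγ replicate 1 (725 and 327) and IFNγ replicate 3 (724 and 310), and the cause was not tested. A pseudocount of 0.1, the linear FPKM scale, a filter at a mean of 1 FPKM, eBayes without trend and robust eBayes gave 985 to 1235 genes. In a fit with a replicate block, 1082 genes departed, 479 of them on both scales. Deviations from the group means of samples with the same number had correlations of -0.39 to 0.33 over 18 pairs. Samples with different numbers were not compared in this way, so whether the numbers pair the samples cannot be told.

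Of 60 named genes 44 kept their call and sign under every alternative that held them, 16 lost the call under at least 1, and 0 changed sign. For single genes, the alternatives other than scalings were judged on deposited values without median-ratio scaling. BMF was not in the fit with the filter at a mean of 1 FPKM. CD274 lost it under median-ratio scaling (-0.39), quantile normalization and length removal (-0.30). CLPSL2, DLEU2, DNAJB9 and ATP5G3 lost it in 6, 3, 4 and 7 of the 12 fits without a single library, CXCL10, CCL2, CT45A7, CLPSL2, BTN3A2, ERAP1, CIITA, CASP2, FABP5 and CKS2 after length removal, DNAJB9 and BANCR on the linear scale and CA9 under quantile normalization. The number of samples per group and the unknown depth limit the precision for genes of low FPKM.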

Other observations

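Some large departures were not called because samples of a group lay far apart. CEBPB, a transcription factor of inflammatory and stress responses, measured 27.6, 5.16 and 33.6 FPKM in the controls, 4.88, 54.0 and 55.3 under SB-3CT, 69.6, 60.0 and 51.2 under IFNγ, and 85.8, 4.32 and 5.43 under both. The groups overlapped, with a departure of -2.61, a standard error of 1.58 and an adjusted p of 0.263 (limma). ARPP19, an inhibitor of the mitotic phosphatase PP2A, had 6.96, 6.29 and 22.1 FPKM under SB-3CT and 27.1, 24.2 and 7.70 under IFNγ, with a departure of 1.41, a standard error of 0.64 and an adjusted p of 0.138. Both genes were chosen after their values were seen.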
